A study of Homo sapiens with 8 samples.

Results

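The genes described here were IGFBP2, IGFBP3, IGFBP4, IGFBP5, IGFBP6, IGFBP7 and IGF1R, the insulin-like growth factor (IGF) binding proteins and the type 1 IGF receptor, chosen by gene symbol. Of these 7 genes, 5 had a row among the 18388 genes measured by SLAM-Seq, and all 5 were among the 10138 genes with enough reads to be tested. IGFBP2 and IGFBP3 were not analysed here. The genes were chosen with earlier values of the siCGGBP1 against siControl contrast known, so their values in that contrast are a description and carry no test.

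The IGF ligands IGF1 and IGF2 signal through IGF1R, a receptor tyrosine kinase that passes the signal through the IRS adaptor proteins to PI3K and AKT. IGF binding proteins are secreted, hold most IGF outside the cell and limit its access to the receptor, and some also store IGF in the extracellular matrix of bone. Proteases such as PAPP-A cleave certain binding proteins and thereby free the ligand, while the stanniocalcins STC1 and STC2 inhibit PAPP-A.

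All libraries came from U-2OS Tet-ON cells, a human osteosarcoma line that carries the tetracycline-regulated transactivator Tet-ON, kept in medium with Tet-ON approved serum, and every library title names DMSO. The siControl group received 50 nM of a control siRNA and the siCGGBP1 group 50 nM of an siRNA pool against CGGBP1, a protein that binds CGG triplet repeats. After 72 h, 4-thiouridine (4sU) was given for 60 min at 75 µM to 3 siControl and 3 siCGGBP1 libraries, and single siControl libraries received 0 µM or 200 µM 4sU. In SLAM-Seq, alkylated 4sU in new RNA is read as T-to-C conversions, from which the share of new RNA in the total RNA of a gene is estimated (the new-to-total ratio). Nothing in the labels says whether replicates were separate cultures, so p-values measure only the spread between these libraries, which may be technical.

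Between 10127519 and 19011714 reads were counted per library. Levels below are in CPM, the reads of a gene scaled by library size and TMM factor. A gene was called where its log2 fold change passed 1 in either direction and edgeR's quasi-likelihood test, with Benjamini-Hochberg adjustment, put the adjusted p below 0.05. The siRNA target CGGBP1 had 107, 93.7 and 77.2 CPM in the 3 siControl libraries and 18.2, 10.1 and 31.1 CPM after siCGGBP1, in the order of the replicates. It was 4.67-fold lower in siCGGBP1 (log2 fold change -2.22, SE 0.39, edgeR adjusted p = 0.0137, lower in 9 of 9 pairs of libraries). The edgeR adjusted p was 0.0632 when siControl replicate 1 was left out, and 0.0851 when siCGGBP1 replicate 1 was. The single siControl libraries held 103 (0 µM) and 160 (200 µM) CPM of CGGBP1. Its new-to-total ratio was 5.85%, 6.35% and 12.25% in siControl and 71.1%, 32.7% and 0% in siCGGBP1. In new RNA, taken as reads times this ratio, CGGBP1 was not called (log2 fold change -0.41, SE 1.75). Of the markers of the labelled cell type, COL1A1 ranged from 601 to 851 CPM in siControl and from 1495 to 2023 in siCGGBP1, and VIM from 2337 to 2792 and from 2494 to 3256. SPARC ranged from 523 to 735 and from 1290 to 1880. RUNX2 was lower, from 10.2 to 26.0 and from 16.1 to 33.0. ALPL was lowest of this list, from 0.247 to 0.796 and from 0 to 1.80, and reached 8.86 in the single libraries. Of the markers of other cell types, EPCAM (epithelial) ranged from 4.58 to 8.18 CPM in siControl, from 6.79 to 13.0 CPM in siCGGBP1 and up to 0.0872 CPM in the single libraries. KRT19, PTPRC, CDH5 and APOA1 had at most 4, 8, 1 and 7 reads in a library, and CDH1, CD3E and PECAM1, markers of epithelial, T and endothelial cells, were at 0 in all 8.

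CGGBP1 is named for CGG repeats, so the promoters were searched for them before the RNA levels are given. RefSeq promoter windows (GRCh38.p14, 250 bases before to 50 bases after the start) were found for 4 of the 5 measured genes, and IGFBP7 had no entry. A tract was at least 3 uninterrupted CGG triplets on either strand (CGG or CCG), which 2181 of 35116 promoters of this length (6.21%) hold. IGFBP4, IGFBP6 and IGF1R each had 1 tract, whose letters are shown in capitals within 30 bases of the gene's strand, 5′ to 3′.

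IGFBP4, chr17:40443288-40443317, plus strand: cagatgCGGCGGCGGCGGCGGCGGcgactc

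IGF1R, chr15:98648542-98648571, plus strand: gtgtggcagCGGCGGCGGCGGcgcggcgag

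IGFBP6, chr12:53097643-53097672, plus strand: gacagaggggCGGCGGCGGgcagcagctgc

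The IGFBP4 tract had 6 triplets and lay at bases -156 to -139 from the start. The IGF1R tract had 4 triplets and lay just downstream of the start, at bases 13 to 24. The IGFBP6 tract had 3 triplets at bases -14 to -6 from the RefSeq start, which lies 231 bases downstream of the GENCODE gene start given below for IGFBP6; for the other 3 genes both starts are the same base. The IGFBP5 window held 3 CGG and 5 CCG triplets and no tract. These matches describe letters in a window, and binding of CGGBP1 at them was not analysed here.

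Total RNA of the receptor was higher in every siCGGBP1 library than in any siControl library at 75 µM 4sU. IGF1R (ENSG00000140443, GRCh38 chr15:98648539-98964530, plus strand) had 55.9, 44.3 and 41.2 CPM in siControl and 98.3, 97.0 and 132 in siCGGBP1. The groups did not overlap, and the lowest siCGGBP1 library stood well above the highest siControl library. In bulk RNA, more RNA per cell and more cells that express the gene cannot be told apart. The means were 47.1 ± 7.75 and 109.3 ± 20.1 (SD, n = 3 each), a 2.32-fold difference (log2 fold change 1.21, SE 0.26). The difference rested on 473 to 1882 reads per library. It ranged from 1.06 to 1.36 on the log2 scale when 1 of the 6 libraries was left out, and the call was lost in each of these 6 fits.

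IGFBP7, a secreted binding protein of the extracellular matrix with low affinity for IGF, showed the same order of the groups with a wider gap. IGFBP7 (ENSG00000163453, GRCh38 chr4:57030773-57110385, minus strand) had 47.7, 30.5 and 40.1 CPM in siControl and 163, 91.2 and 121 in siCGGBP1. Again the groups did not overlap. The means were 39.4 ± 8.58 and 124.9 ± 36.1 (SD, n = 3 each), a 3.17-fold difference (log2 fold change 1.66, SE 0.29). With 1 library left out the log2 fold change ranged from 1.43 to 1.85. The call was lost without siControl replicate 2, without siControl replicate 3 and without siCGGBP1 replicate 1.

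IGFBP4, which binds both IGFs and is the classical substrate of PAPP-A, lay on the other side. IGFBP4 (ENSG00000141753, GRCh38 chr17:40443450-40457725, plus strand) had 119, 63.9 and 63.4 CPM in siControl and 43.0, 38.0 and 57.7 in siCGGBP1. The groups did not overlap, but siControl replicate 1 stood far above the other 2, which lay close to the highest siCGGBP1 library. The means were 81.9 ± 31.7 and 46.2 ± 10.3 (SD, n = 3 each), with a log2 fold change of -0.83 (SE 0.32), under the fold needed for a call. Without siControl replicate 1 the log2 fold change was -0.46.

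IGFBP5 and IGFBP6 gave overlapping groups. IGFBP5, a binding protein abundant in bone matrix (ENSG00000115461, GRCh38 chr2:216672105-216695549, minus strand), had 116, 73.4 and 65.0 CPM in siControl and 77.2, 47.7 and 85.3 in siCGGBP1. Its log2 fold change was -0.28 (SE 0.31) and ranged from -0.43 to 0.02 with 1 library left out. IGFBP6, which prefers IGF2 over IGF1 (ENSG00000167779, GRCh38 chr12:53097436-53102345, plus strand), had 41.7, 42.5 and 26.0 CPM in siControl and 71.0, 71.0 and 12.5 in siCGGBP1. In siCGGBP1, replicates 1 and 2 were above every siControl library and replicate 3 was below every one, so the log2 fold change of 0.48 had an SE of 0.51 and rose to 0.96 without siCGGBP1 replicate 3.

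**Figure D1:**
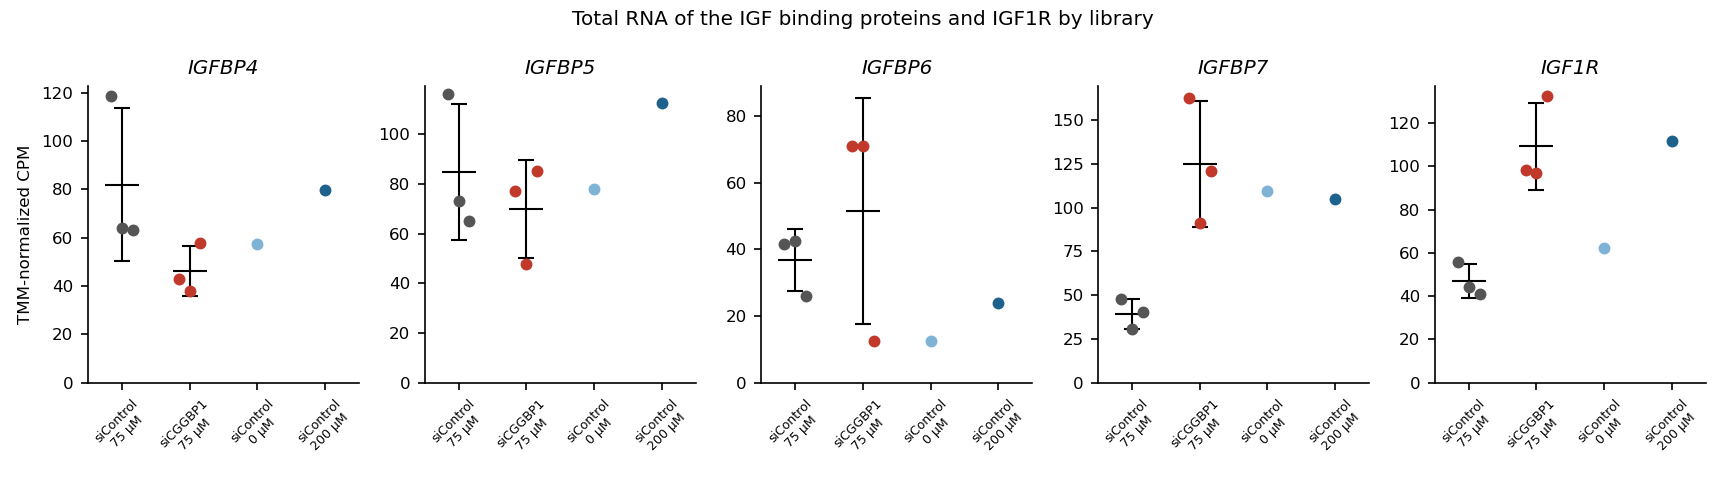
Total RNA of the 5 measured genes in each library, as TMM-normalized CPM on linear axes that start at 0, for siControl and siCGGBP1 at 75 µM 4sU (points are replicates 1 to 3, bars mean ± SD, n = 3) and for the single siControl libraries at 0 and 200 µM 4sU. IGFBP7 and IGF1R are higher in all 3 siCGGBP1 libraries than in the 3 siControl libraries at 75 µM, and the single siControl libraries lie above those 3 as well, at 109 and 105 for IGFBP7 and at 62.2 and 112 for IGF1R.

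Of the 5 genes, 2 were called higher in siCGGBP1 (IGFBP7 and IGF1R) and 0 lower, where 0.444% and 0.957% of the 10138 tested genes (1.40% in either direction) were called. Groups without overlap were found for 2 genes that were higher and 1 that was lower, where 12.0% and 12.3% of tested genes showed no overlap in these directions. Nothing is read from these counts, since the contrast was known when the genes were chosen. Over all tested genes, the log2 fold change had a median of -0.00.

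**Figure D2:**
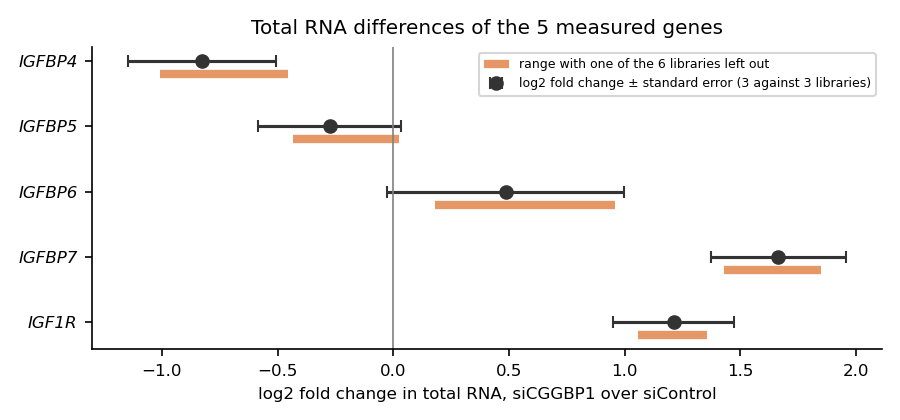
Log2 fold change in total RNA (siCGGBP1 over siControl at 75 µM 4sU, n = 3 each) of the 5 genes, with points and black bars for the edgeR estimate ± SE and orange bars for its range when 1 of the 6 libraries is left out. IGFBP7 (1.66) and IGF1R (1.21) lie to the right of 0 over their whole range, IGFBP4 (-0.83) to the left, and the orange bar of IGFBP5 (-0.28) reaches just past 0.

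The single siControl libraries at 0 µM and 200 µM 4sU took no part in the choice of the genes or in the fits. IGFBP7 had 109 and 105 CPM in them, within the siCGGBP1 range of 91.2 to 163 and above all 3 siControl libraries at 75 µM. IGF1R had 62.2 at 0 µM, above every siControl library at 75 µM and below every siCGGBP1 library, and 112 at 200 µM, within the siCGGBP1 range. Both single libraries exceeded the highest siControl library at 75 µM for 1506 of the 10138 tested genes (14.9%), and for 330 of the 1220 genes (27.0%) whose groups did not overlap and were higher in siCGGBP1. At least 1 of them exceeded the lowest siCGGBP1 library for 592 of these 1220 genes (48.5%), as it did for IGFBP7 and IGF1R. CGGBP1 itself was not low in these single libraries. For IGFBP7 and IGF1R, at least 1 siControl library outside the comparison thus lay within the siCGGBP1 range. With 1 library per dose no test was possible, and the cause was not tested.

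IGFBP4 had 57.2 CPM at 0 µM, inside the siCGGBP1 range, and 79.6 at 200 µM, inside the siControl range. IGFBP5 had 78.2 and 113, both inside the siControl range at 75 µM. IGFBP6 was at 12.5 and 23.8 in these libraries, below all 3 siControl libraries at 75 µM.

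The ratio of IGFBP7 to IGFBP4 reads within a library sets both binding proteins against each other without any scaling between libraries. It was 0.402, 0.478 and 0.633 in siControl at 75 µM, and 3.79, 2.40 and 2.09 in siCGGBP1. In the single siControl libraries it was 1.91 at 0 µM and 1.32 at 200 µM, between the groups. IGFBP7 was higher and IGFBP4 lower without overlap at 75 µM, so the separation of those groups by the ratio was given in advance.

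Over the 8 libraries, log2 levels of IGFBP7 and IGF1R ran together (Pearson r = 0.846) and so did those of IGFBP4 and IGFBP5 (r = 0.821), while the other 8 pairs lay between -0.468 and 0.106. All points share the libraries' depth and scaling, so these values describe the libraries only. IGFBP7 and IGF1R were both higher in every siCGGBP1 library than in the siControl libraries of the same contrast. That contrast was known when the genes were chosen, so a high r between IGFBP7 and IGF1R was partly given in advance. The tested gene most alike to IGFBP7 over the 8 libraries was COPA (r = 0.973), and to IGF1R it was TPGS2 (r = 0.991). For IGFBP4 it was ANKRD20A8P (r = 0.974), for IGFBP5 CKAP2L (r = 0.946) and for IGFBP6 MOV10 (r = 0.981). Each of these is the highest r among all tested genes, and how high such a maximum is by chance was not tested.

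The estimated share of newly synthesized RNA of the receptor varied widely between libraries of the same group. The new-to-total ratio of IGF1R stood at 7.68%, 27.8% and 52.4% in the siControl libraries, against 9.90%, 11.3% and 0% in siCGGBP1. The deposited 5% to 95% credible limits of the siControl replicates, 5.51% to 10.7%, 23.9% to 32.1% and 46.6% to 58.2%, did not overlap each other, so the spread between libraries exceeded the counting error of each. The means were 29.3 ± 22.4% and 7.05 ± 6.14% (SD, n = 3 each). The ratio was 10.6% at 200 µM 4sU, below 2 of the 3 siControl libraries at 75 µM. Between siControl replicates 2 and 3 the ratio differed although conversions per 100 covered T were close, at 1.06 and 1.19.

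The conversions behind these ratios were few. Conversions of IGF1R numbered 83, 225 and 226 for siControl, 171, 243 and 9 for siCGGBP1, 12 at 0 µM and 155 at 200 µM 4sU. Per 100 covered T, this was 0.365, 1.06 and 1.19 in siControl and 0.463, 0.577 and 0.0128 in siCGGBP1, with 0.0234 in the library without 4sU. In siCGGBP1 replicate 3 the receptor therefore had fewer conversions per T than the library without 4sU, although that replicate as a whole had 0.241 conversions per 100 covered T against 0.0638 without 4sU. The share of tested genes with a ratio of 0 was also high in this replicate and in siControl replicate 3 (59.8% and 57.4%). It was 55.6% in the library at 200 µM 4sU, against 22.5% to 31.9% in the other 4 libraries with a ratio. Reads times ratio gave 43, 150 and 248 new IGF1R reads in siControl and 99, 127 and 0 in siCGGBP1, overlapping groups with a log2 fold change of -0.89 (SE 1.33).

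IGFBP5 was the binding protein with new RNA in most libraries. Its ratio was 2.08%, 3.17% and 11.3% in siControl, 0%, 4.23% and 7.18% in siCGGBP1, and 24.2% at 200 µM 4sU, with credible limits of 21.4% to 27.3% in the last. The groups at 75 µM overlapped, and by this ratio the library at 200 µM was above all 6. As a whole that library had 0.218 conversions per 100 covered T, within the range of 0.183 to 0.263 at 75 µM. For IGFBP5 it had 0.561, against 0.579 in siControl replicate 3 at 75 µM. New reads were 24, 28 and 84 in siControl and 0, 23 and 87 in siCGGBP1 (log2 fold change -0.56, SE 2.41). Conversions of IGFBP5 numbered 5 in the library without 4sU and 299 at 200 µM. Per 100 covered T, they were 0.165, 0.177 and 0.579 in siControl, 0.158, 0.227 and 0.235 in siCGGBP1 and 0.00865 without 4sU. In siCGGBP1 replicate 1 the ratio was thus 0% although its conversions per T exceeded the library without 4sU.

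For IGFBP4, IGFBP6 and IGFBP7 the new-to-total ratio was at or near 0 in nearly all libraries, a level at which no difference was detectable. IGFBP7 had a ratio of 0%, 6.22% and 0.94% in siControl, 0.37%, 0% and 0% in siCGGBP1 and 0.02% at 200 µM, from at most 73 conversions in a library. Its conversions per 100 covered T were 0.128, 0.247 and 0.0685 in siControl, 0.128, 0.0712 and 0.0165 in siCGGBP1 and 0.00796 without 4sU. Its log2 fold change in new RNA was -1.87 (SE 3.75) from the ratio, but 0.80 when conversions were counted instead. IGFBP4 had 4.25% in siControl replicate 1, its library with the highest total RNA, and 0% in the other 6 libraries with a ratio. IGFBP6 had 0.16% in siCGGBP1 replicate 2 and 0% elsewhere. No gene of the 5 was called in newly synthesized RNA, where edgeR called 0.0493% of tested genes (0.0296% higher and 0.0197% lower), 3.15% had an unadjusted p under 0.05 and DESeq2 called 0.296%.

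**Figure D3:**
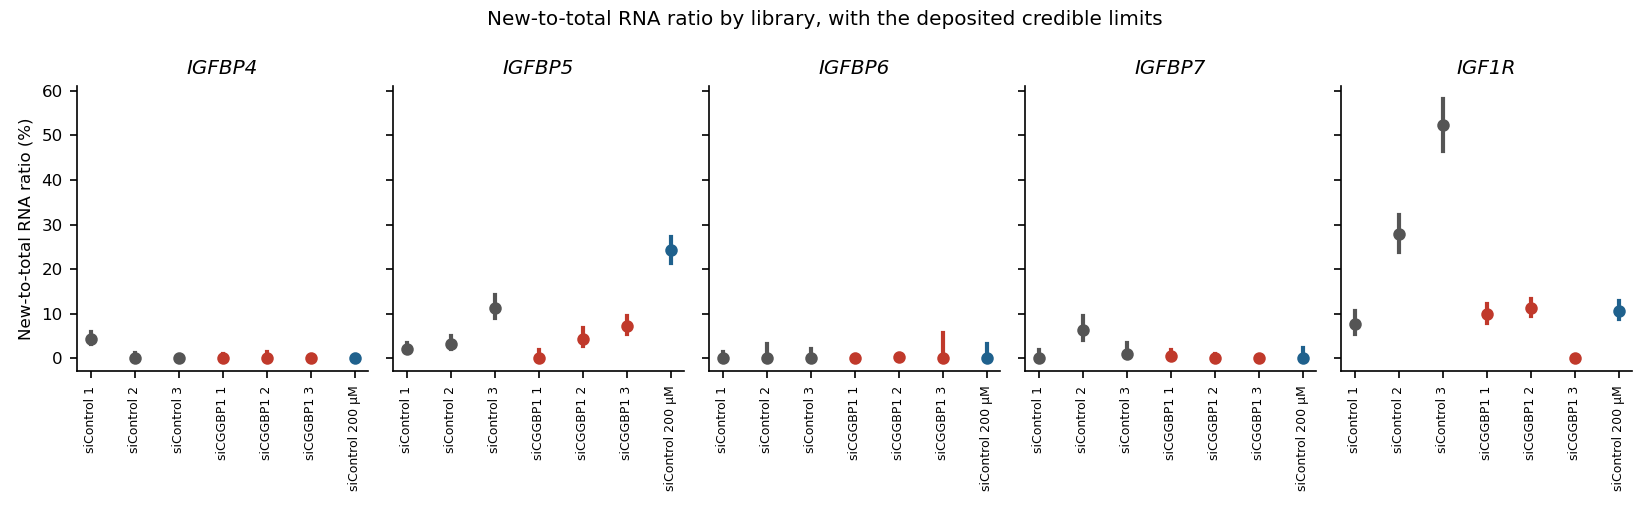
New-to-total RNA ratio (%) of the 5 genes in each library with 4sU, with points for the deposited maximum a posteriori value and vertical bars for the 5% to 95% credible limits, in siControl (grey) and siCGGBP1 (red) at 75 µM and siControl at 200 µM 4sU (blue). IGF1R spans 7.68% to 52.4% within siControl, IGFBP5 is highest at 200 µM (24.2%), and the other 3 genes lie near 0.

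The other genes of the pathway were taken from a list of 58 ligands, receptors, proteases, IGFBP-domain proteins, adaptors and PI3K, AKT and mTOR pathway members, without the genes above. Of these, 53 had a row and 38 were tested. In total RNA edgeR called 0 higher and 0 lower, with 3 higher (PAPPA, ADAM12, PIK3R1) and 5 lower (STC1, IGF2BP2, SHC1, RHEB, FOXO3) at an unadjusted p under 0.05, which 7.95% and 8.43% of all tested genes had in these directions. DESeq2, which called 3.66% of all tested genes, called 2 higher (PAPPA and ADAM12) and 1 lower (STC1). The median log2 fold change was -0.05, with 17 genes above 0 and 21 below, against -0.00 over all tested genes. In newly synthesized RNA 0 genes of the list were called by edgeR or DESeq2, and 0 had an unadjusted p under 0.05. For most listed genes the SE of the log2 fold change in newly synthesized RNA was large. It was 3.32 for PAPPA and 3.70 for STC1, against 0.24 for CCN2. At such SEs large differences could go uncalled, so 0 calls do not show unchanged synthesis.

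PAPPA, ADAM12 and STC1 are listed as genes that cleave IGF binding proteins or inhibit that cleavage, and none of the 3 passed the main test. HTRA1, which also cleaves binding proteins, is listed with the IGFBP-domain proteins and is given there. PAPPA, the protease of IGFBP4 and IGFBP5, had 12.7, 5.02 and 14.0 CPM in siControl, 30.7, 33.5 and 38.9 in siCGGBP1, and 6.31 and 7.76 in the single libraries at 0 and 200 µM. The groups did not overlap, and the single siControl libraries lay with the other siControl libraries. The means were 10.6 ± 4.86 and 34.4 ± 4.16 (SD, n = 3 each), with a log2 fold change of 1.70 (SE 0.48), an edgeR adjusted p of 0.0967 and a DESeq2 adjusted p of 0.0228, so the difference missed the threshold of the main test.

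STC1, the inhibitor of PAPP-A, had 12.6, 11.5 and 20.3 CPM in siControl, 4.93, 1.98 and 1.13 in siCGGBP1, and 17.9 and 11.5 at 0 and 200 µM. It was lower in 9 of 9 pairs of libraries, and the single libraries again lay within or next to the siControl range. The log2 fold change was -2.47 (SE 0.81), with an edgeR adjusted p of 0.146 and a DESeq2 adjusted p of 0.0327, on as few as 16 reads in a library. It was -3.25 without siCGGBP1 replicate 1 and -2.09 without siCGGBP1 replicate 3. Within each library, the ratio of PAPPA to STC1 reads was 1.01, 0.436 and 0.691 in siControl and 6.22, 17.0 and 34.5 in siCGGBP1, and 0.352 and 0.674 in the single siControl libraries. This ratio separated the siCGGBP1 libraries from all 5 siControl libraries, which the ratio of IGFBP7 to IGFBP4 also did by a narrower margin. PAPPA was higher and STC1 lower in siCGGBP1 than in all 5 siControl libraries, so separation by PAPPA to STC1 was given in advance. In siCGGBP1 this ratio rested on 50, 23 and 16 reads of STC1. STC2 had 0 reads in all 8 libraries.

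ADAM12, a metalloprotease that cleaves IGFBP5, was singled out after its values were seen. It had 18.6, 20.3 and 13.5 CPM in siControl, 45.1, 43.2 and 50.0 in siCGGBP1, and 58.6 and 18.8 at 0 and 200 µM. The 0 µM siControl library was therefore above every siCGGBP1 library. The log2 fold change between the groups was 1.40 (SE 0.35), with an edgeR adjusted p of 0.0666 and a DESeq2 adjusted p of 0.0106.

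**Figure D4:**
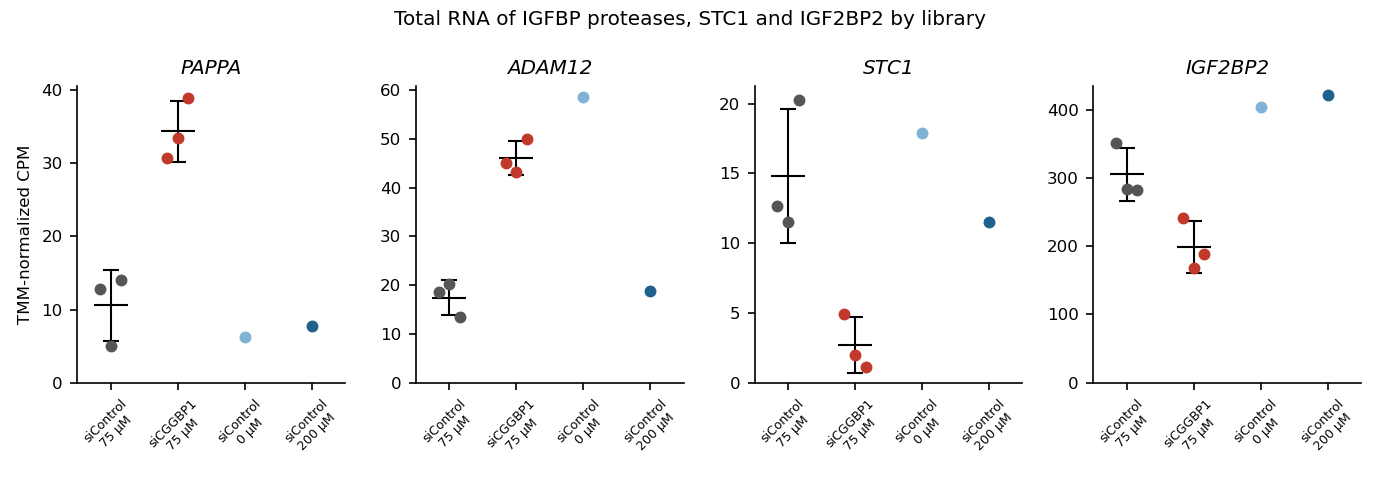
Total RNA of PAPPA, ADAM12, STC1 and IGF2BP2 in each library, as TMM-normalized CPM on linear axes that start at 0 (points are replicates, bars mean ± SD, n = 3, in siControl and siCGGBP1 at 75 µM 4sU, and single points for siControl at 0 and 200 µM). PAPPA and STC1 at 0 and 200 µM lie with or near siControl at 75 µM, while ADAM12 at 0 µM (58.6) lies above all siCGGBP1 libraries.

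Among ligands, IGF1 had 0 reads in all 8 libraries and IGF2 was read in all of them. IGF2 had 97.8, 101 and 146 CPM in siControl and 135, 142 and 120 in siCGGBP1, overlapping groups (log2 fold change 0.20, SE 0.23, edgeR adjusted p = 0.725), and 42.7 and 59.5 in the single libraries, below all 6. IGF2R, which takes up IGF2 and carries it to lysosomes, had a log2 fold change of -0.15 (SE 0.27, edgeR adjusted p = 0.837). INSR, the insulin receptor, did not reach the read minimum, with 0 to 172 reads in the 6 libraries. IGFBP1 was not analysed here.

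IGF2BP2, a protein that binds IGF2 mRNA and was named after its values were seen, had 350, 284 and 282 CPM in siControl and 241, 168 and 189 in siCGGBP1. It was lower in 9 of 9 pairs (log2 fold change -0.62, SE 0.20), with an edgeR adjusted p of 0.151 and a DESeq2 adjusted p of 0.0466, and the single siControl libraries held 404 and 422. The 5 tested proteins with an IGFBP domain outside the family had a median log2 fold change of -0.08 and 0 calls, with 5 below 0, as were 5092 of the 10138 tested genes. With 1 library left out, CCN2, KAZALD1 and HTRA1 reached 0.085, 0.16 and 0.028. HTRA1, a secreted serine protease among them, had means of 10.8 and 10.5 CPM (log2 fold change -0.05, SE 0.63). In the single siControl libraries HTRA1 was at 11.2 CPM at 0 µM and 41.9 at 200 µM, the latter above every other library.

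Below the receptor, the adaptor IRS1 had a log2 fold change of -0.51 (SE 0.39, edgeR adjusted p = 0.567) and the inhibitory adaptor GRB10 one of 0.57 (SE 0.39, edgeR adjusted p = 0.514). Without siCGGBP1 replicate 3 the value of GRB10 was 0.075 and that of IRS1 -0.93, and without siCGGBP1 replicate 2 that of IRS1 was -0.23. IRS2 had at most 1.5 reads in any library. Among the 38 tested genes of the list, 5 were higher in siCGGBP1 with no overlap of the groups, where 12.0% of all tested genes were, and besides PAPPA and ADAM12 these were SOS1 (log2 fold change 0.54), PIK3R1 (0.62) and AKT1 (0.55). Another 5 were lower with no overlap, where 12.3% of all tested genes were, and besides STC1 and IGF2BP2 these were SHC1 (-0.62), RHEB (-1.05) and RPS6KB1 (-0.79). None of these 6 signalling genes, named after their values were seen, passed the test, and their edgeR adjusted p-values ranged from 0.191 to 0.424. With 1 library left out their log2 fold changes ranged from 0.31 to 0.77 for the genes that were higher and from -1.23 to -0.50 for those that were lower. The single siControl libraries at 0 and 200 µM held 71.4 and 73.6 CPM of SOS1, against a siCGGBP1 mean of 49.2. In the same order, with the siCGGBP1 mean in brackets, PIK3R1 had 26.1 and 73.8 (66.2) and AKT1 27.7 and 23.6 (72.5). SHC1 had 102 and 144 (83.7), RHEB 28.9 and 18.7 (20.4) and RPS6KB1 76.4 and 28.1 (19.5). Of the 21 PI3K, AKT and mTOR pathway genes, 10 were above 0 and 11 below, and their median was -0.01 on the log2 scale.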

How the data were processed

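Per the labels and the study's methods, RNA was alkylated with iodoacetamide and made into 3′ end libraries. The authors removed ribosomal reads with Bowtie2 2.3.0, mapped the rest to GRCh38 with STAR 2.5.3a and counted with GRAND-SLAM. The expected counts deposited by the authors (reads, conversions and covered T) are not normalized. The new-to-total ratio was deposited by the authors as a fraction per gene and library, with credible limits and none for the 0 µM library; it is printed in percent. Reads carry no molecular identifiers, so credible limits cover counting error only.

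Of the 6 libraries at 75 µM, 3 or more had to hold 100 or more reads of a gene for it to be tested, on counts rounded to whole numbers, with edgeR 4.0.16 in R 4.3.3 (TMM, quasi-likelihood, Benjamini-Hochberg over all tested genes). Newly synthesized RNA was reads times the maximum a posteriori ratio, with library sizes from total reads. The SE is the size of the log2 fold change over the root of its F statistic. Likeness is Pearson's r of log2 CPM with a prior count of 2. Positions are from GENCODE. The code was also run on simulated counts, and nothing about the power of the fits on these data is read from that run. The spread between libraries of a group (edgeR's biological coefficient of variation) was 0.399 in total RNA and 1.78 in newly synthesized RNA. Alternatives were a DESeq2 1.42.0 Wald test, its size factors, minimums of 10 reads or 1 read, a replicate block and leaving out libraries. Named genes were the 7 chosen genes, CGGBP1, 12 listed pathway genes, each listed gene with an adjusted p under 0.05, and the gene most alike to each chosen gene. The genes and lists were chosen with earlier results of these data known. Columns named alpha, beta and double hits were not used. No spike-in was used for scaling, so a change in total RNA per cell could not be seen.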

Additional observations from a re-analysis of the deposited data

Results flagged for a closer look

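The single siControl libraries, which entered no comparison, held more IGFBP7 and IGF1R than any siControl library at 75 µM 4sU. IGFBP7 was at 109.3 CPM at 0 µM and 105.2 at 200 µM, against at most 47.7 in siControl at 75 µM. IGF1R was at 62.2 and 111.8, against at most 55.9. Above the library without 4sU, conversions per 100 covered T at 200 µM were 0.561 for IGFBP5 (0.00865 without 4sU), 0.297 for IGF1R (0.0234) and 0.0815 for IGFBP7 (0.00796). Each is a single library, and the cause was not tested.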

How the results depend on the processing

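Of the 5 genes, the 2 called higher became 0 to 1 when 1 library was left out and 1 (IGFBP7) without replicate 3 of both groups, an alternative chosen after seeing the data. That last fit also gave 1 call lower, IGFBP4 at -1.17, and put IGF1R at 0.97. On the pathway list the 0 calls higher became 2 (PAPPA, ADAM12) with DESeq2 and 2 (the same genes) without replicate 3 of both groups, and the 0 calls lower became 1 (STC1) with DESeq2; the cause was not tested. CGGBP1 stayed lower in every alternative, at -2.83 to -1.91 over the fits with libraries left out (-2.83 without replicate 3 of both groups), and lost the threshold at -2.16 (without siCGGBP1 replicate 1) and -2.10 (without siControl replicate 1). Over the same fits IGF2R ranged from -0.33 to 0.072 and HTRA1 from -0.20 to 0.10, turning above 0 in 1 and 4 of them. In total RNA the direction changed for IGFBP5 in 1 of the alternatives run (0.02), and in newly synthesized RNA it changed in 1 or 2 for IGFBP5, IGFBP6, IGFBP7 and IGF1R (IGF1R -1.38 to 0.32). With the replicate block the calls were 2 and 0 for the 5 genes and 0 and 0 for the list, as without it, and CGGBP1 was at -2.36. Deviations of same-numbered libraries correlated at 0.108, 0.181 and 0.0879, and each library correlated best with its own number, a hint from the data that the labels do not give as a pairing. IGFBP7 and IGF1R had 371 to 1882 reads per library at 75 µM, and at most 248 of them were new.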
